A study of Mus musculus with 15 samples.

Results

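The 10 genes described here are genes tied to heat production in brown fat: the adrenergic receptors Adrb1 and Adrb3, the transcriptional coactivators Ppargc1a and Ppargc1b, the brown fat genes Ucp1, Cidea, Dio2 and Kcnk3, and the cycling enzymes Ckb and Gk. They were taken by name, with earlier results of these data known. They are 10 of the 21770 protein-coding genes in the mouse annotation, which holds 78289 genes in all. For each gene, H3K4me3 peaks that reached within 2000 bp of any annotated transcript start on GRCm39 were collected from 3 peak lists, and the nearest peak was taken where none did. H3K4me3, the trimethylated form of lysine 4 of histone H3, was profiled by ChIP-seq in mBA cells, which the labels describe as primary cells from brown adipose tissue and the methods as brown preadipocytes immortalized with SV40 large T antigen and differentiated in culture. The groups were wild-type cells (WT), wild-type cells given octyl d-2HG, a cell-permeable form of d-2-hydroxyglutarate, at 500 µM for 72 h (WT + 2HG), and CLPP knockout cells (CLPP-KO), which lack the mitochondrial protease CLPP from a whole-body deletion. Each group had 4 ChIP samples and 1 input sample. CLPP-KO cultures received uridine, and all groups were kept in high-glucose medium without pyruvate.

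Brown adipocytes burn fuel to make heat when noradrenaline from sympathetic nerves reaches beta-adrenergic receptors on their surface. The receptors raise cAMP, protein kinase A is activated, stored fat is broken down, and transcription of Ucp1 and of the coactivator Ppargc1a is induced. H3K4me3 is typically found over the start sites of active genes and of CpG-rich genes, and a number of the enzymes that remove such marks are inhibited by 2-hydroxyglutarate. A peak marks the chromatin of a start site and is not a measure of its transcript.

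The files held 1 list per group, made from the 4 replicates of that group together, so no value below has a replicate error and no difference between lists was tested. The WT list held 12342 peaks, the WT + 2HG list 14059 and the CLPP-KO list 15118, and a longer list gives any gene more chances of a peak. Peak area, the area under the curve of −log10 p along the peak, had a median of 2971 in WT, 5027 in WT + 2HG and 5744 in the CLPP-KO list, so areas were read only as percentiles, the share of peaks in the same list with an equal or smaller area. Read depth per sample was not in the files used here. Of the 7 adipocyte marker genes examined, 2 had a promoter peak in WT, 5 had one in WT + 2HG and 4 in the CLPP-KO list, and the defining markers Adipoq and Fabp4 had none in any list. Of 5 preadipocyte markers, 4 had one in every list, and the part of cell state in the values below was not tested. No promoter peak was listed at the 4 leukocyte markers, and 1 of 4 endothelial markers (Kdr) had one in each list. Of 5 skeletal muscle markers, 1 had a peak in WT and in WT + 2HG (Ckm, whose peak also covers a start of Klc3) and 2 had one in CLPP-KO (also Myod1).

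Of the 10 thermogenic genes, 3 had a promoter peak in WT, against 51.3% of all protein-coding genes. In WT + 2HG 6 of the 10 had a peak, against 56.4% of coding genes, and in CLPP-KO the number was again 6, against 58.2%. Ppargc1b, Adrb1 and Ckb had a peak in all 3 lists, as did 50.6% of coding genes. Cidea, Kcnk3 and Gk had a peak in WT + 2HG and in CLPP-KO (called the 2HG and KO lists below) and not in WT, a pattern found at 4.75% of coding genes. Ucp1, Ppargc1a, Dio2 and Adrb3 had a peak in no list, as did 40.6% of coding genes. Each of the 3 genes with a WT peak also had one in the 2HG and KO lists, as did 98.8% of the coding genes with a WT peak.

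The start sites themselves differed in base content, and the sequences before 4 of them are shown. Their genes range from a gene with a peak in every list to genes with none. The 4 sequences were chosen as lying outside every annotated untranslated region. Each is the 250 bases before the most upstream annotated start lying within 1000 bp of the canonical start, read 5′ to 3′ on the strand of the gene, with CG dinucleotides in capitals. Adrb1 (chr19:56710381-56710630, plus strand) had a peak in all lists, Gk (chrX:84820436-84820685, minus strand) in the 2HG and KO lists, and Ucp1 (chr8:84016397-84016646, plus strand) and Dio2 (chr12:90705820-90706069, minus strand) in none. The Ucp1 window ends at its most upstream start, while the canonical start lies further downstream at 84016941. All coordinates are on GRCm39.
Adrb1: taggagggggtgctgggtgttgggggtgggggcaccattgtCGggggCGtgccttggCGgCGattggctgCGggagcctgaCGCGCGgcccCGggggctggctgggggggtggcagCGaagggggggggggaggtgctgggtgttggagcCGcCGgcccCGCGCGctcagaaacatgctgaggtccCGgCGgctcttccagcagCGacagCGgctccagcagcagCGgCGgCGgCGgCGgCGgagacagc
Gk: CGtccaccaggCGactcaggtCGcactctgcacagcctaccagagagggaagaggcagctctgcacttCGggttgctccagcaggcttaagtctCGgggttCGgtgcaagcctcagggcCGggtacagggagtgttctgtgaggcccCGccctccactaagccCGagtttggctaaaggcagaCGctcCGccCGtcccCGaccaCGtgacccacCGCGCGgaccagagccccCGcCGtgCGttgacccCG
Ucp1: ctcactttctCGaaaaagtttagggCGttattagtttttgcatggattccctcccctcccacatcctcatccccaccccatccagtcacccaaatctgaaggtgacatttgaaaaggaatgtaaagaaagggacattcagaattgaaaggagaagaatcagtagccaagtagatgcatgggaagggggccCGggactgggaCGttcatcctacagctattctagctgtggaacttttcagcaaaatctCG
Dio2: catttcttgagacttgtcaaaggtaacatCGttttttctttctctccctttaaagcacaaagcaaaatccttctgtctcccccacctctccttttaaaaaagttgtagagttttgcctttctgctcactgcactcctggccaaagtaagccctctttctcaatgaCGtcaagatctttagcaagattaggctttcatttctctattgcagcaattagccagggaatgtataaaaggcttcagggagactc

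The Adrb1 window held 25 CG dinucleotides and 75.6% G + C. The Gk window held 21 and 66.8%, the Ucp1 window 5 and 46.4%, and the Dio2 window 2 and 41.2%, where the median over all coding genes was 6 dinucleotides. The count before the start did not separate the genes with a peak from those without: the windows of Kcnk3, Cidea, Ckb and Ppargc1b, which had a peak in at least 2 lists, held 1, 6, 7 and 12, and those of Ppargc1a and Adrb3, with none, held 2 and 4. Only the Dio2 window, among those of the 10 genes, contained the letters of a cAMP response element (TGACGTCA, its own reverse complement), the site of the factors that protein kinase A activates; it began 88 bases before the start and was present in 1.36% of coding-gene windows. A TATA box (TATAAA, either strand) also lay in the Dio2 window, 23 bases before the start, and in no other of the 10, against 12.6% of coding-gene windows. The nuclear receptor hexamer AGGTCA, searched on both strands, was in none of the 10 windows and in 13.6% of coding-gene windows. A match in these letters is a description and not a measured binding site. At Ucp1, Cidea, Kcnk3 and Ckb the canonical start lies downstream of the start that bounds the window. The bases directly before those canonical starts were therefore not searched.

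Within 500 bp of the canonical start, the observed over expected CpG ratio was 0.84 at Adrb1, 0.76 at Kcnk3, 0.73 at Ppargc1b, 0.72 at Gk, 0.68 at Ckb and 0.65 at Cidea. It was 0.44 at Ucp1, 0.33 at Dio2, 0.19 at Ppargc1a and 0.17 at Adrb3. The 6 genes with a promoter peak in some list thus all had a higher ratio than the 4 with none, and the ranges did not overlap. The median was 0.76 over the coding genes with a peak in all lists, 0.62 over those with a peak in the 2HG and KO lists only and 0.20 over those with none. Across coding genes, 4.29% of those with a ratio below 0.25 had a WT promoter peak, 21.95% of those from 0.25 to 0.5, 73.8% of those from 0.5 to 0.75 and 91.9% of those above. Kcnk3, with a higher ratio than 73.05% of coding genes, was in the uppermost of these classes and yet had no WT peak.

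**Figure D1:**
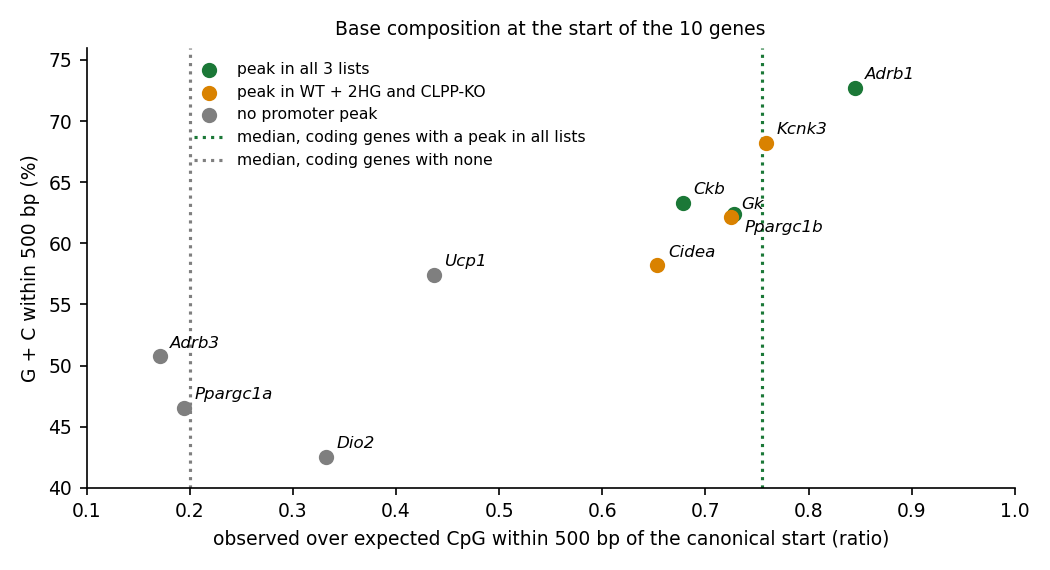
Observed over expected CpG ratio (x axis) and G + C percent (y axis) within 500 bp of the canonical start of each of the 10 genes, coloured by the lists in which the gene had a promoter peak, with dotted lines at the medians of coding genes with a peak in all lists and in none. The 4 genes without a promoter peak lie between 0.17 and 0.44 and the other 6 between 0.65 and 0.84.

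Adrb1 encodes the beta-1 adrenergic receptor, which on brown fat lineage cells is linked to noradrenaline-driven growth as well as heat production. The gene spans 10915 bp on chromosome 19 (56710631-56721545, plus strand), and its canonical transcript has 1 exon. In WT it carried 2 short peaks of 693 bp and 844 bp, which lay 159 bp apart, at the 13.7 and 11.8 percentile. WT + 2HG had 1 peak of 2532 bp at the 64.9 percentile, and CLPP-KO 1 peak of 2599 bp at the 83.9 percentile. The 2HG and KO peaks contained both WT peaks whole, began about as far upstream of the start (740 bp and 748 bp, against 610 bp in WT) and reached 1791 bp and 1850 bp into the exon, against 1085 bp for the second WT peak. The percentile was 51.2 points higher in WT + 2HG than in WT and 70.2 points higher in CLPP-KO. Among the 11021 coding genes with a peak in all lists, 18 had a larger difference for WT + 2HG and 10 for CLPP-KO. Adrb1 started low, at the 13.7 percentile, with much room to rise, and was not set against genes of a similar WT percentile. With the areas of both WT pieces summed, the difference was 41.9 and 60.9 points, and 83 and 29 genes had a larger one. The size and rank of the difference also depended on the value ranked. By summit −log10 p it was 19.4 points (2412 genes larger) for WT + 2HG and 27.7 points (1329 genes larger) for CLPP-KO, and by mean area per bp it was 21.6 points (1972 larger) and 34.1 points (732 larger). The strongest WT piece had a summit −log10 p of 4.75 and an area of 541, among the smaller areas of the list. An antisense lncRNA, Gm59115, starts 784 bp into Adrb1 and inside the second WT peak and the 2HG and KO peaks.

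Adrb3, the beta-3 receptor that is the main adrenergic receptor of rodent fat cells, had no promoter peak by the 2000 bp rule. A peak lay just beyond it in every list, within the first exon of its canonical transcript, beginning 2320 bp downstream of the start in WT, 2663 bp in WT + 2HG and 2234 bp in the CLPP-KO list. Each of the 6 genes with a promoter peak had, in every list where it was marked, a promoter peak that covered its canonical start or began at most 193 bp downstream of it. The Adrb3 peak was at the 26.2 percentile in WT, the 32.0 percentile in WT + 2HG and the 63.8 percentile in the CLPP-KO list, with widths of 1331 bp, 1044 bp and 1467 bp. Gm45470, an lncRNA read from the opposite strand, starts 2138 bp downstream of the Adrb3 start, close to these peaks, so a mark of that start and a mark of Adrb3 cannot be told apart. Only 2.57% of the coding genes without a promoter peak in any list had a WT peak within 5000 bp of a start, with 3.35% in WT + 2HG and 3.61% in the CLPP-KO list.

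**Figure D2:**
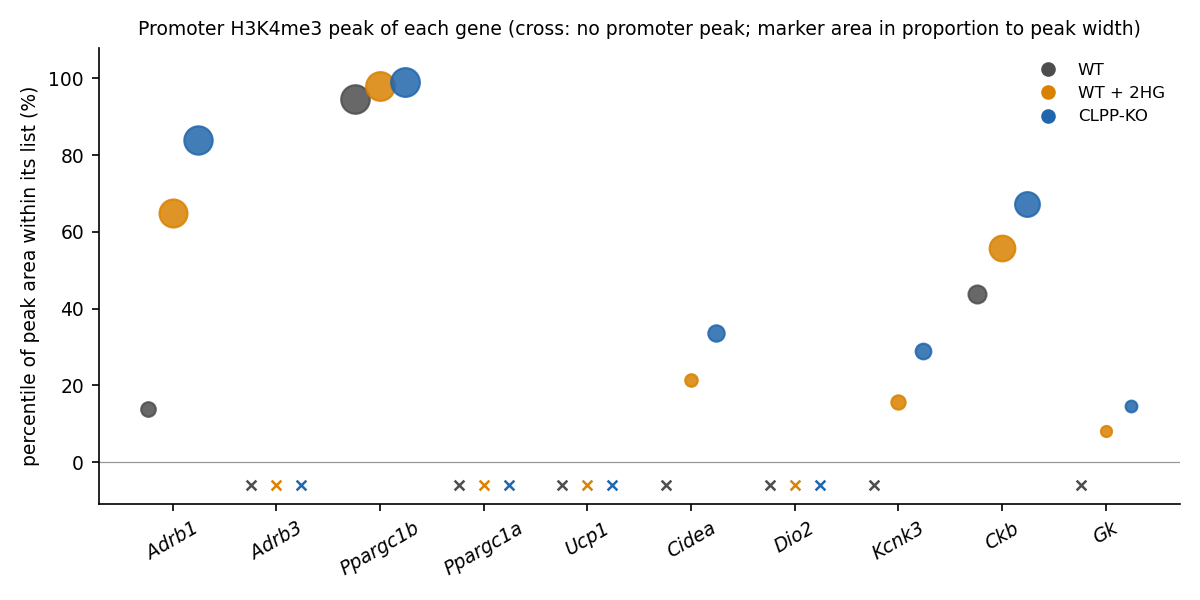
Percentile of peak area within its own list (y axis, percent) for the promoter peak at the start of each of the 10 genes (x axis), with 1 point per list, marker area in proportion to peak width, and a cross where no promoter peak was listed. Where a gene had a point in several lists, the order was WT, WT + 2HG, CLPP-KO from low to high, and Adrb1 ran from the 13.7 to the 83.9 percentile.

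The coactivators PGC-1α (Ppargc1a) and PGC-1β (Ppargc1b), which drive mitochondrial biogenesis, stood at opposite ends. Ppargc1b had the strongest and widest promoter peak of the 10 genes in each list, at the 94.8 percentile in WT (2635 bp), the 98.0 in WT + 2HG (2673 bp) and the 99.0 in the CLPP-KO list (2672 bp). The peak was nearly the same stretch in every list: the 2HG and KO peaks contained the WT peak whole, and it covered 98.6% of each. It ran mostly downstream, to between 2384 bp and 2407 bp past the start, with its summit in intron 1. It stopped short of Mir378a, the miRNA gene inside Ppargc1b, whose annotated start lies 2764 bp downstream. Annotated starts of Gm58743 and Gm58919, neither of them protein-coding, lay inside it in every list. The Ppargc1b percentile was 3.26 points higher in WT + 2HG and 4.25 points higher in CLPP-KO than in WT. The medians over all 11021 genes were 3.69 and 5.30 points. From the 94.8 percentile Ppargc1b had little room to rise, so this comparison cannot place its change among those of other genes. By summit −log10 p it was 29.5 and 34.0 points higher, where the medians were 5.49 and 7.58. By width it differed by −0.32 and −0.30 points.

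Ppargc1a, the cold-inducible coactivator, is a gene of 113477 bp on chromosome 5 (51611592-51725068, minus strand) with 9 annotated starts, and none had a peak in any list. The nearest peak lay about 545 kb upstream of the closest of these starts, at a group of lncRNA starts (Gm40302, Gm43177, Gm71495 and Gm72113). For coding genes without a promoter peak, the median distance to the nearest peak was 114 kb in WT, 98.5 kb in WT + 2HG and 90.9 kb in the CLPP-KO list, and 19.1%, 17.2% and 15.3% of these genes were at least as far from a peak as Ppargc1a.

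Ucp1 encodes the uncoupling protein that lets protons leak back into the mitochondrial matrix, so that the energy is released as heat. It lies on chromosome 8 (84016647-84025085, plus strand), has 5 annotated starts, and had no promoter peak in any of the lists. The nearest peak was the same in each, 41.4 to 41.5 kb downstream at the start of Elmod2 (in WT chromosome 8, 84058456-84059140), at the 66.7 percentile in WT, the 61.8 in WT + 2HG and the 71.7 in the CLPP-KO list. Of the coding genes without a promoter peak, 72.3% were at least as far from a WT peak as Ucp1, so its distance was not unusual among them. Absence from a list means that no stretch passed the caller's threshold, and gives no level for the mark.

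Dio2 encodes the deiodinase that makes active thyroid hormone inside brown adipocytes and is itself induced by cAMP. Its only annotated start (chromosome 12, 90705819, minus strand) had no peak in any list. The nearest lay 645 kb upstream, at the starts of Cep128 and of Tshr, the thyrotropin receptor, and was at the 21.5 percentile in WT, the 31.0 in WT + 2HG and the 24.3 in the CLPP-KO list. At least as far from a peak were 16.3% of the unmarked coding genes in WT, 14.8% in WT + 2HG and 13.1% in the CLPP-KO list.

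Cidea, a lipid droplet protein that promotes droplet fusion and is abundant in brown fat, had a promoter peak in the 2HG and KO lists only. It measured 510 bp at the 21.3 percentile in WT + 2HG and 870 bp at the 33.6 percentile in CLPP-KO. The WT + 2HG peak lay whole inside the CLPP-KO peak, and both covered the canonical start with the summit in exon 1, 230 bp and 196 bp downstream. In WT the nearest peak was 46.7 kb downstream at Tubb6. The antisense lncRNA B430212C06Rik has starts within both Cidea peaks, the closest 33 bp from the Cidea start.

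Kcnk3 encodes the potassium leak channel TASK-1, which is enriched in brown over white fat cells. Its start on chromosome 5 (canonical start 30745393, plus strand) had a peak of 663 bp at the 15.7 percentile in WT + 2HG and one of 794 bp at the 29.0 percentile in CLPP-KO, beginning 170 bp and 163 bp downstream of the start. The CLPP-KO list held a second Kcnk3 peak over exon 2, 34135 bp downstream of that start and close to another annotated one, of 997 bp at the 38.7 percentile, which neither of the other lists had. In WT the nearest peak was 26.6 kb from a Kcnk3 start, at Slc35f6. The lncRNA Gm9899 starts on the opposite strand 570 bp into Kcnk3, inside the peaks of the 2HG and KO lists.

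Ckb encodes the brain-type creatine kinase, which acts in the creatine cycle of brown fat mitochondria. Its peak was 1041 bp at the 43.9 percentile in WT, 2139 bp at the 55.9 in WT + 2HG and 1983 bp at the 67.2 in CLPP-KO. The WT peak began 35 bp downstream of the canonical start (chromosome 12, 111638772, minus strand) and did not cover it, whereas the 2HG and KO peaks began 232 bp and 197 bp upstream of it and contained the WT peak whole. The percentile was 12.0 points higher in WT + 2HG and 23.3 points higher in CLPP-KO than in WT, and 27.0% and 11.4% of the 11021 genes had a larger difference. The widths were 2.06 and 1.91 times that of WT, where the medians over all these genes were 1.10 and 1.10. The 2HG and KO peaks also contained the start of a long transcript of Trmt61a, read from the opposite strand, but the other Trmt61a starts lay beyond Ckb, the nearest at −5741 bp from its start, under a peak of their own.

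Gk encodes glycerol kinase, which returns glycerol to fat synthesis in brown adipocytes. It lies on chromosome X (84745537-84820435, minus strand), and the methods give chromosome X as excluded, but the lists held 276, 383 and 413 peaks there in WT, WT + 2HG and CLPP-KO. The Gk peak was 401 bp at the 8.14 percentile in WT + 2HG and 448 bp at the 14.5 percentile in CLPP-KO, the weakest promoter peak among the 10 genes in each. Neither covered the canonical start: they began 193 bp and 148 bp downstream, and 89.5% of the CLPP-KO peak was shared. Gm56680, an lncRNA read from the opposite strand, has starts on either side of these peaks and none inside them. The closest to the Gk start lies 34 bp upstream of it. In WT the nearest peak was at Tab3, 138 kb from the closest annotated Gk start and 202111 bp from the canonical one.

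Cidea, Kcnk3 and Gk therefore had low-ranking peaks where they had any. Among the 1033 coding genes with a peak in the 2HG and KO lists only, the median percentile was 17.3 in WT + 2HG and 24.4 in the CLPP-KO list, with median widths of 567 bp and 638 bp. In WT + 2HG, Cidea was above that median and Kcnk3 and Gk were below, and in CLPP-KO Cidea and Kcnk3 were above and Gk below. With only peaks of a summit p of at most 1e-05 kept, Cidea was still marked in the 2HG and KO lists, Kcnk3 in CLPP-KO only and Gk in neither, and Adrb1 was then no longer marked in WT. All 3 had a higher percentile in CLPP-KO than in WT + 2HG, as did 70.9% of the 1033 genes.

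**Figure D3:**
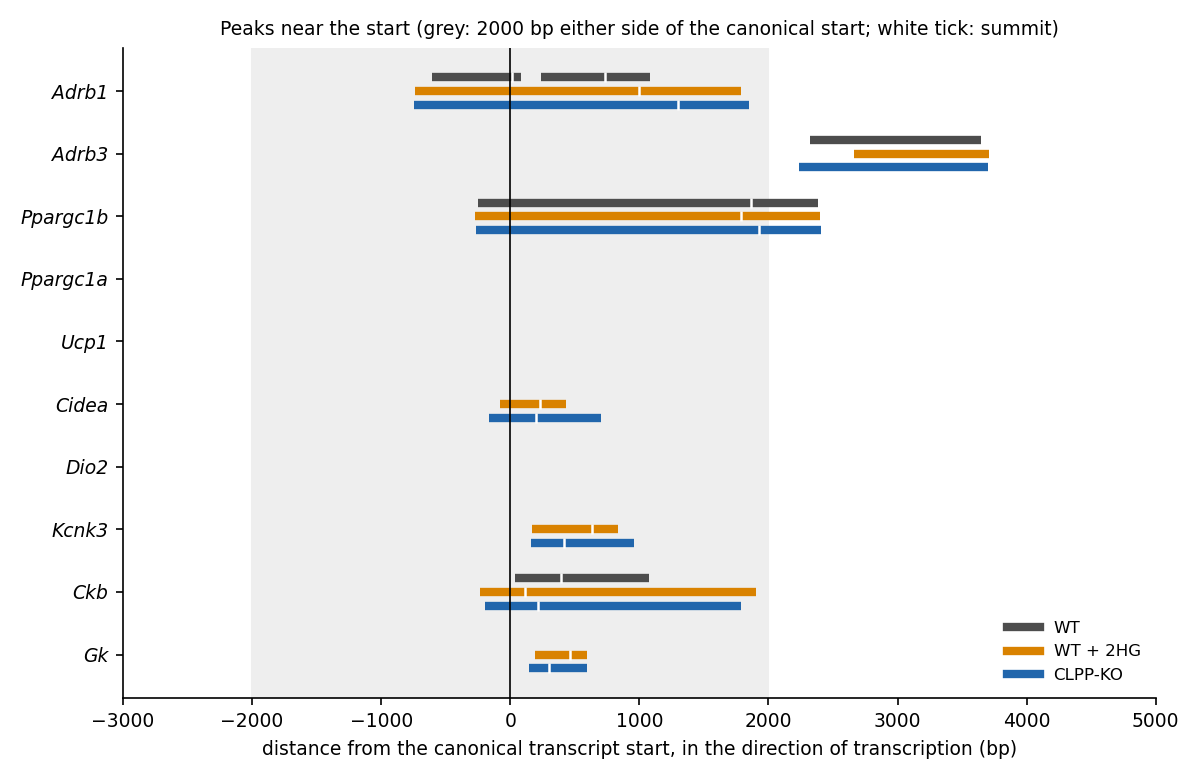
Extent of each peak near the canonical start of the 10 genes, as distance from the start in the direction of transcription (x axis, bp), with 1 row per list, a white tick at the summit of promoter peaks and grey shading over 2000 bp either side of the start. Adrb1 has 2 WT pieces inside the longer 2HG and KO peaks, the Adrb3 peaks begin between 2234 bp and 2663 bp downstream, and Ucp1, Ppargc1a and Dio2 have no bar.

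For the 3 genes with a peak in all lists, the percentile was higher in WT + 2HG than in WT at 3 of 3, against 64.3% of the 11021 coding genes, and higher in CLPP-KO than in WT at 3 of 3, against 69.9%. The order WT below WT + 2HG below CLPP-KO was seen at 3 of 3, against 31.6%. Their median difference was 12.0 points for WT + 2HG and 23.3 points for CLPP-KO, and that of all genes 3.69 and 5.30 points. When the genes were ranked only among the 11021, so that list length played no part, Adrb1 stood at the 6.25, 50.2 and 75.2 percentile in WT, WT + 2HG and CLPP-KO, Ckb at the 32.2, 38.4 and 50.4 and Ppargc1b at the 93.3, 97.2 and 98.5, while the medians over all genes were −0.26 points for WT + 2HG and −0.52 for CLPP-KO. The order of the lists was thus the same for each of the 3 genes on both rankings. By summit −log10 p in place of area, Ckb differed by −0.05 points between WT + 2HG and WT, while Ppargc1b was 29.5 points higher and Adrb1 19.4, and by mean area per bp Ckb differed by −7.46 points. For CLPP-KO, Ckb was 10.6 points higher by summit −log10 p, where the median over all genes was 7.58. By mean area per bp it was 3.14 points higher, below the median of 6.98.

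**Figure D4:**
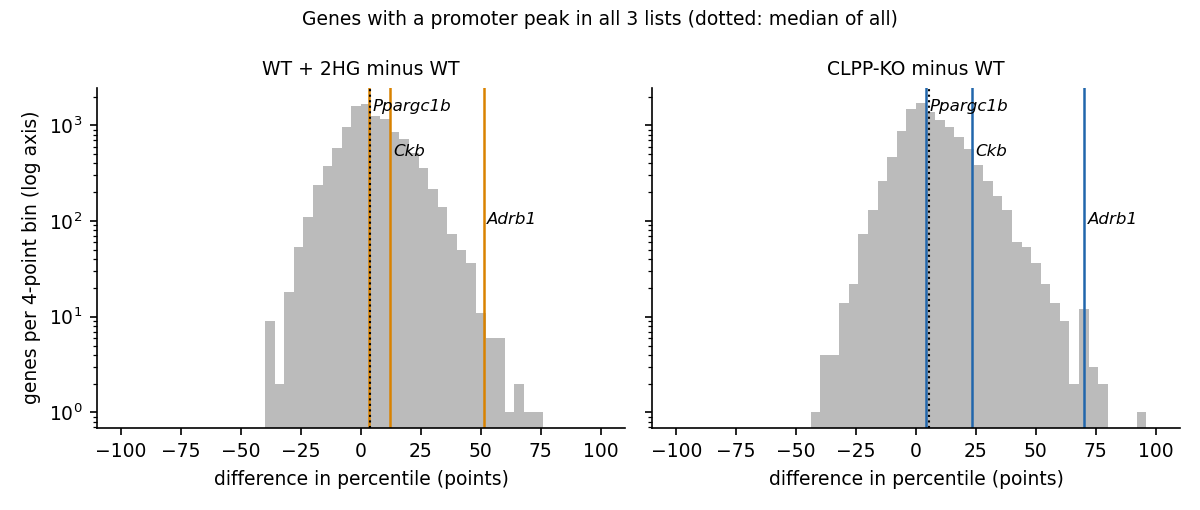
Number of coding genes (y axis, log scale, 4-point bins) by difference in peak percentile from WT (x axis, points) for WT + 2HG on the left and CLPP-KO on the right, over the 11021 genes with a promoter peak in all lists, with lines at Ppargc1b, Ckb and Adrb1 and a dotted line at the median. Adrb1 lies in the right tail at 51.2 and 70.2 points, from a low WT percentile of 13.7. Ppargc1b lies near the medians of 3.69 and 5.30, with little room to rise from its WT percentile of 94.8.

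The genes around these 10 in the thermogenic pathway were described as 5 lists, 67 genes in all, also chosen with earlier results known. Of the 67, 38 had a promoter peak in WT, 46 had one in WT + 2HG and 49 in the CLPP-KO list. These are shares of 56.7%, 68.7% and 73.1%, where all coding genes were at 51.3%, 56.4% and 58.2%. Each of the 38 with a WT peak also had one in the 2HG and KO lists, as had 98.8% of coding genes with a WT peak. The lists of signal relay and of transcription regulators were mostly marked in WT already, and those of brown-selective metabolism and of cycling enzymes were mostly not.

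Of 15 genes of the beta-adrenergic relay, 14 had a promoter peak in WT, 15 had one in WT + 2HG and 14 in the CLPP-KO list (93.3%, 100.0% and 93.3%). Gnas, the stimulatory G protein with several promoters, was highest in WT at the 99.0 percentile. Lipe, hormone-sensitive lipase, had a peak in WT + 2HG only, of 466 bp at the 22.5 percentile and 3028 bp from its canonical start.

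Of 19 transcription regulators of brown fat, 15 had a promoter peak in WT, 17 had one in WT + 2HG and 18 in the CLPP-KO list (78.9%, 89.5% and 94.7%). Nfia was highest in WT, at the 98.4 percentile. Pparg, the master regulator of fat cell formation, was lowest among those marked in all lists, at the 16.99 percentile in WT. Its strongest peak was at the 70.4 percentile in WT + 2HG and the 37.3 in the CLPP-KO list, an order that differed from that of Adrb1. In CLPP-KO the Pparg mark was split into pieces of 713 bp and 680 bp, the latter at the 28.4 percentile. WT + 2HG had an unbroken peak of 1549 bp there, and the CLPP-KO pieces were not summed. Lhx8, a brown lineage marker, was unmarked in WT, at the 5.40 percentile in WT + 2HG and the 75.7 in the CLPP-KO list. Esrrg, an orphan nuclear receptor, was at the 5.22 percentile in WT + 2HG and the 40.8 in the CLPP-KO list. Those Esrrg peaks lay near another annotated start, 388557 bp and 387967 bp from the canonical one. At the canonical Esrrg start only CLPP-KO had a peak, of 291 bp at the 12.7 percentile. Ebf2, a determination factor of brown precursors, had a peak in CLPP-KO only, at the 22.2 percentile. Irf4, a cold-induced partner of PGC-1α, had none in any list.

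Of 15 brown-selective metabolic genes, 3 had a promoter peak in WT, 5 had one in WT + 2HG and 7 in the CLPP-KO list (20.0%, 33.3% and 46.7%). The 8 with none in any list were Cox7a1, Cox8b, Elovl3, Cpt1b, Bmp8b, Fgf21, Pm20d1 and Slc36a2, which share this with Ucp1. Otop1 and Slc27a2, a fatty acid transporter, had peaks in the 2HG and KO lists only, at the 8.56 and 18.2 percentile in WT + 2HG and the 24.1 and 30.0 in CLPP-KO. Plin5, a lipid droplet protein, and Acot11, a thioesterase, had one in CLPP-KO only, at the 16.2 and 6.42 percentile. Among those marked in all lists, Pank1 was highest in WT at the 85.3 percentile and P2rx5, a purinergic receptor on brown adipocytes, lowest at the 10.9, with the 22.7 in WT + 2HG and the 40.6 in the CLPP-KO list.

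Of 14 genes of creatine, calcium and glycerol cycling, which hold the partners of Ckb and Gk, 4 had a promoter peak in WT, 6 had one in WT + 2HG and 7 in the CLPP-KO list (28.6%, 42.9% and 50.0%). Gatm, the first enzyme of creatine synthesis, was unmarked in WT and at the 24.3 percentile in WT + 2HG and the 23.2 in the CLPP-KO list. Alpl, the phosphatase of the creatine cycle, was unmarked in WT and at the 15.0 and 32.3 percentile. Ryr2, a calcium release channel, had a peak in CLPP-KO only, at the 30.0 percentile. Atp2a2, the calcium pump SERCA2, was highest in WT at the 94.3 percentile, and Gamt, the second enzyme of creatine synthesis, lowest at the 51.0, with the 34.9 in WT + 2HG and the 47.4 in the CLPP-KO list.

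Of 4 other uncoupling proteins and carriers, 2 had a promoter peak in WT and 3 in each of the 2HG and KO lists. Ucp2 was at the 4.12 percentile in WT, the 39.3 in WT + 2HG and the 44.7 in the CLPP-KO list, and so had a peak in all lists where Ucp1 and Ucp3 had none. Slc25a4, an ADP/ATP carrier, was highest in WT at the 42.2 percentile, and its relative Slc25a5 was unmarked in WT and at the 34.4 and 33.7 percentile in the 2HG and KO lists.

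**Figure D5:**
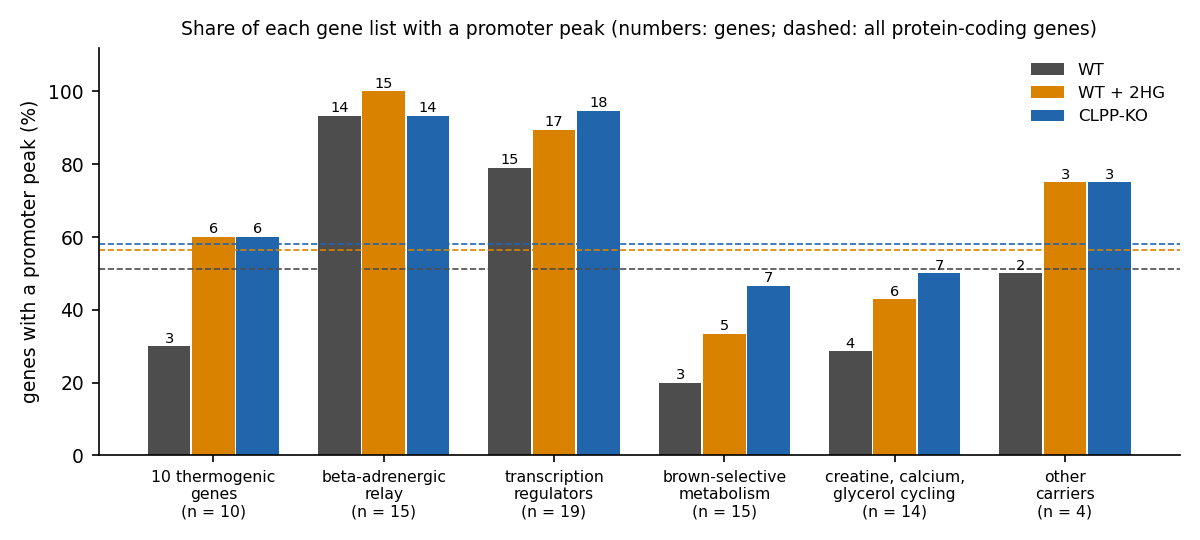
Percent of each gene list with a promoter peak (y axis) by list of peaks (bar colour), with the number of genes above each bar and dashed lines at the share of all coding genes. The 10 thermogenic genes are at 3, 6 and 6, below the coding share in WT and within a few points of it in the 2HG and KO lists.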

How the data were processed

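H3K4me3 ChIP-seq was analysed in mBA cells, with 4 ChIP samples per group. The authors trimmed reads, aligned them to GRCm39 (mm39) and called peaks with Genrich over the 4 replicates of a group together, combining a p per replicate by Fisher's method. The submitters' processing notes name fastp 0.23.4, BWA 0.7.17, Genrich 0.6.1 and deepTools 3.5.4. The deposited peak lists give start, end and summit offset in bp, a signal value (the area under the −log10 p curve, not scaled between lists), a −log10 p at the summit and a whole-number score; the deposited q field was −1 throughout. Every listed area lay well above the minimum peak area that the methods state. The peak lists hold no value per replicate and no read depth.

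The 10 genes and the pathway lists were chosen with earlier results of these data known. Starts came from GENCODE M39, and a gene had a promoter peak where a peak reached within 2000 bp of any of its starts. The peak with the largest area gave the gene's percentile in that list, except that Kcnk3 is described by the peak at its first starts. All 10 genes are named, and from each pathway list the genes with a peak in some but not all lists and, among those in all lists, the highest and lowest WT percentile. For an unmarked gene the nearest peak was named. A gene of the pathway lists that the rule names is not reported here. Overlaps were tested on simulated peaks against a direct search. Sequence was read from the GRCm39 genome. No test was run, since each group has 1 list. Python 3.11.15 with numpy 2.4.6 and pandas 2.3.3 was used. Alternatives varied the window, the starts, the threshold, list size and the value ranked.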

Additional observations from a re-analysis of the deposited data

How the results depend on the processing

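No paired analysis was possible because each group has 1 peak list over its 4 replicates, which also means that no fit without a replicate was run.

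Which of the 10 genes had a promoter peak did not differ from the values above with a window of 1000 bp, canonical or protein-coding transcripts only, or summits inside the window. A window of 5000 bp added Adrb3 in all lists. With a summit p of at most 1e-05, or an area of at least 1000, Adrb1 was no longer marked in WT, Kcnk3 was marked in CLPP-KO only and Gk in no list. With each list limited to the size of the shortest by area, Gk was unmarked, and 575 coding genes had a peak in the 2HG and KO lists only. By summit p that limit left 1 of the 10 genes (Cidea) and 572 coding genes in that pattern.

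The median percentile difference of Ppargc1b, Adrb1 and Ckb stayed above 0 under every alternative, which did not hold for each gene alone. For WT + 2HG and CLPP-KO in turn it was 19.4 and 27.7 points by summit p, 27.2 and 25.9 by width, 21.6 and 31.8 by mean area per bp, 5.89 and 15.9 with equal list sizes by area, and 6.15 and 18.2 when ranked among the 11021 genes, an alternative chosen after seeing the data. Over all coding genes marked in every list, the medians were 5.49 and 7.58 by summit p, 1.02 and 1.88 by width, and 5.05 and 6.98 by mean area per bp. With equal list sizes by area they were −0.02 and −0.51. Ckb was below 0 for WT + 2HG by summit p and by mean area per bp, and Ppargc1b in both comparisons by width. The median width ratio of the 3 genes was 1.65 and 1.69 with the widths of all peaks summed, against 1.11 and 1.10 over all such genes. With a reciprocal overlap of at least 50%, 1 of the 3 promoter peaks in both WT and WT + 2HG counted as shared, 2 of the 3 in both WT and CLPP-KO and 5 of the 6 in both WT + 2HG and CLPP-KO, the other being Kcnk3, whose strongest CLPP-KO peak lies at exon 2 and overlaps none in WT + 2HG. The cause of these shifts was not tested. Of 136 values of these summaries under an alternative, 120 stayed within the limits set (1.5 times for counts) and 16 moved, which are among the values given above. Of 225 counts for the pathway lists 17 moved, and of 116 percentiles of single genes 72 moved beyond their 95% counting interval, mostly where another value was ranked or list sizes were made equal.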
